A study of Mus musculus with 2 samples.

Results

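The serpins are a family of 15 genes among the 8551 genes listed for the mouse liver libraries of this study, taken as every listed gene whose symbol starts with Serpin. By clade letter, 7 belong to clade a (Serpina3k, Serpina6, Serpina10, Serpina7, Serpina11, Serpina12 and Serpina9), 1 to clade b (Serpinb6b) and 7 to clades c to i (Serpinc1, Serpind1, Serpine2, Serpinf1, Serpinf2, Serping1 and Serpinh1). The RefSeq gene table of the mouse holds 63 protein-coding genes with such a symbol, and those that are not among the 15 were not analysed here. Liver was compared between male wild type mice, called normal, and male db/db mice, called diabetic, both 9 weeks old and both labelled with the strain background C57BL/6. The db/db mutation disrupts the leptin receptor in all tissues, so the liver was taken from an obese, hyperglycaemic animal and not from one with a liver-specific lesion. The mice came from 2 suppliers, which cannot be told apart from genotype here, and ate chow freely, and the livers were removed about 3 h into the light phase. Each group is 1 library, and the study's text does not say how many mice went into it.

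Serpins share a fold with an exposed reactive loop that a target protease cleaves, after which the serpin traps the protease in a covalent complex. Hepatocytes secrete many clade a, c, d, f and g serpins into plasma, where they hold coagulation, fibrinolysis, complement and leukocyte proteases in check. Some members inhibit nothing and carry hormones instead, and Serpinh1 stays in the endoplasmic reticulum as a chaperone of collagen.

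Expression was measured by digital gene expression tags, in which cDNA is cut with DpnII at its recognition site and a short stretch beside the site is sequenced. Deposited values are in TPM, here tags of a gene per 1000000 clean tags of its library, with no division by gene length, so that levels of different genes can be set side by side as numbers of tags. The values rise in steps of 1 tag, which gave library sizes of 10278530 (normal) and 13508232 (diabetic) clean tags, and all 15 serpins came out as whole reads in both to within the rounding of the values at 2 decimals. Ratios are diabetic over normal library, on the log2 scale unless a fold is named, with 95% Clopper-Pearson intervals that cover counting error only. With 1 library per group no difference has a replicate check, and the 1.5-fold threshold of the study sets what is called higher or lower. In RNA of whole liver, fewer cells of a type and less RNA per cell cannot be told apart.

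Which member a tag stands for depends on the bases next to the DpnII site, so the site nearest the 3' end of the longest GENCODE M21 transcript of each gene was read with the 16 bases that follow. For all 15 members this 20-base tag was found in the transcripts of no other gene, and the closest tag of another gene differed at 2 to 4 positions. The tags of 8 members that the results turn on are shown, with the recognition site in capitals.
Serpina3k: GATCgataaacattacctgc
Serpinc1: GATCagttacttaaaagcca
Serpind1: GATCgccattgacctgttca
Serpinf1: GATCtcaactgcaagattgc
Serpinf2: GATCttttgtgggctggcac
Serpina11: GATCctgcccctcattggtc
Serpina9: GATCcattacaccgaacaga
Serpina12: GATCctatttcaggacccca

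The tag of Serpina3k differed at 7 to 13 positions from those of the other 9 Serpina3 genes with a protein-coding transcript, which lie beside it on chromosome 12. Positions were compared without shifting 1 tag against the other, so that tags alike but for a shift count as far apart. The genes of alpha-1-antitrypsin, Serpina1a to Serpina1e, gave the contrasting case, because 1 tag stood at the site nearest the 3' end in all 5 of them. It is printed because no count of it can be assigned to a single gene.
Serpina1a to Serpina1e: GATCccacacataaatgacc

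Of the 46 serpin genes with such a tag that are not among the 15 members, 18 shared it with another gene and 28 did not. The authors matched tags to RefSeq and not to these transcripts, and levels of Serpina1a to Serpina1e were not analysed here.

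In diabetic liver 10 of the 15 serpins were at least 1.5-fold lower, 4 were at least 1.5-fold higher and 1, Serpinf1, lay between. Over all listed genes 15.3% were at least 1.5-fold lower and 34.4% at least 1.5-fold higher, so the family leaned down in libraries that on the whole leaned up. The median log2 ratio of the family was -1.27, against 0.25 over all listed genes. Clade a had 5 lower and 2 higher members with a median of -1.48, and clades c to i had 4 lower and 2 higher members with a median of -0.67. For none of the 15 members did the counting interval include a ratio of 1.

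The listed table holds no gene with a mean below 1 TPM, which matters at its lower end. Serpina12, Serpina9 and Serpinb6b were under 1 TPM in diabetic liver and were listed through their level in normal liver alone, so that they had to be lower. Of the 12 members at 1 TPM or more in both libraries, 7 were lower, 4 higher and 1 between, and their median log2 ratio was -0.65, beside 13.9% lower and 32% higher among listed genes of that kind. The 8 members with a mean of at least 10 TPM were split more evenly, with 4 lower, 3 higher and a median of -0.11, where 11.6% of listed genes at that level were lower and 35.0% higher.

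**Figure D1:**
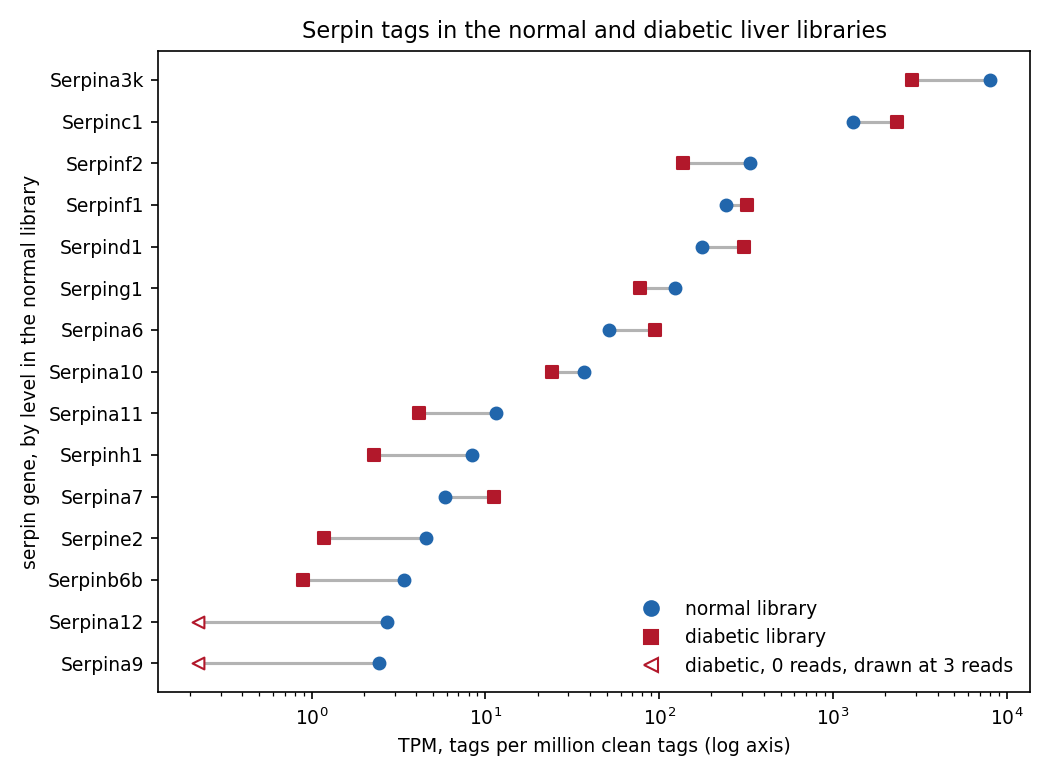
Level of each serpin gene in TPM (log axis) in normal liver (blue circles) and diabetic liver (red squares), with 1 library per group and grey lines joining the values of a gene. Serpina3k is highest in both libraries, Serpina12 and Serpina9 have 0 reads in diabetic liver and are drawn as open triangles at 3 reads, and 5 of the 15 genes have the diabetic value to the right.

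**Figure D2:**
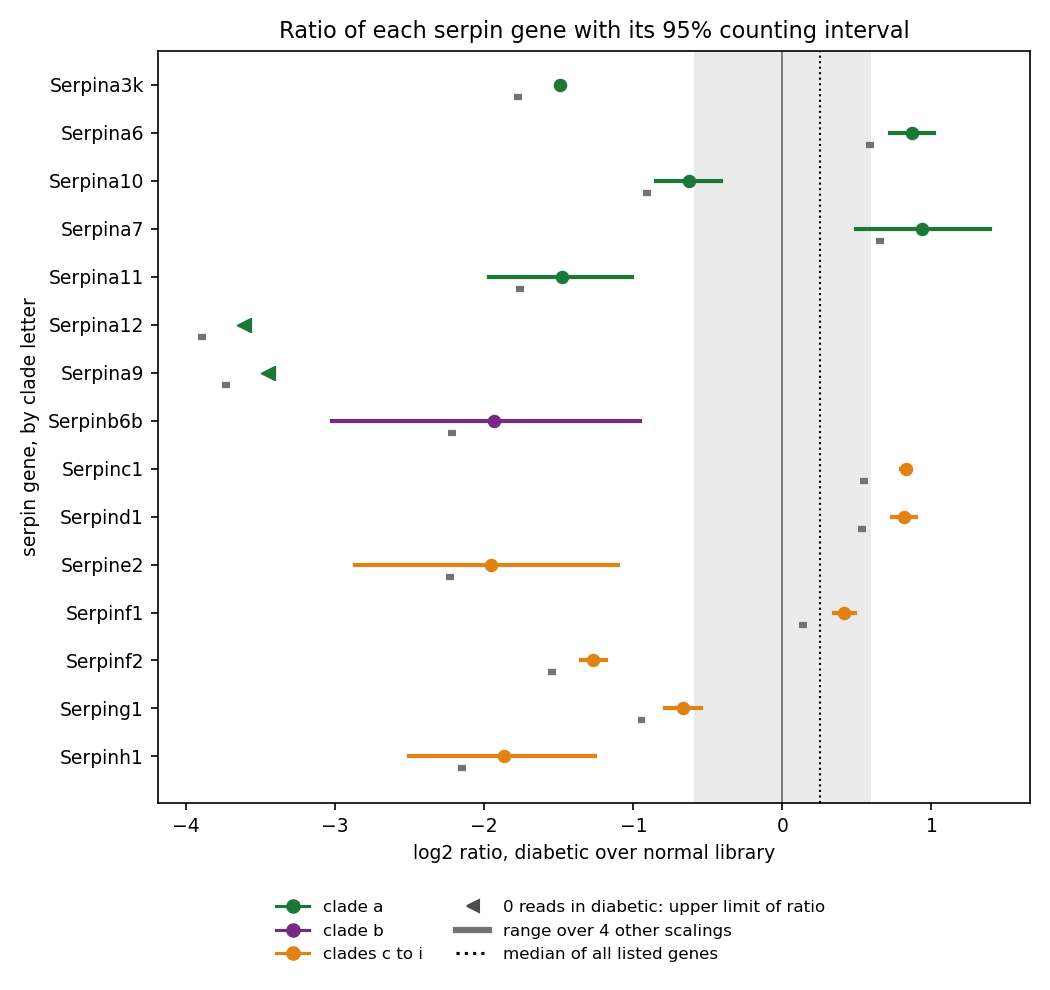
Log2 ratio of diabetic over normal library for each serpin gene, coloured by clade, with 95% counting intervals, the band of less than 1.5-fold in grey, the median of all listed genes dotted, and the range over 4 other scalings as short grey bars, and left-pointing triangles as upper limits where diabetic liver had 0 reads. Of the 15 genes, 10 lie left of the band, and the bars of Serpinc1 and Serpind1 fall inside it.

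Serpina3k dominated the tags of the 15 listed members. Its product is a secreted inhibitor of the antichymotrypsin group, which in the mouse has expanded into many adjacent genes. It had 82550 reads in normal liver and 38494 in diabetic liver, that is 8031 and 2849.7 TPM, a ratio of -1.49 (95% interval, -1.51 to -1.48). Among all listed genes it ranked 3 by level in normal liver and 17 in diabetic liver. Only 2.92% of listed genes had a ratio as low or lower.

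The serpins that carry hormones were higher in diabetic liver. Serpina6 encodes corticosteroid-binding globulin, the plasma carrier of glucocorticoids, and was at 51.7 TPM in the normal and 94.4 TPM in diabetic liver. From 531 and 1275 reads its log2 ratio was 0.87 (95% interval, 0.72 to 1.02), a 1.83-fold higher level. Serpina7 encodes thyroxine-binding globulin, a carrier of thyroid hormone, and had 60 and 151 reads in the same order. Its log2 ratio of 0.94 was the highest of the family but had a wide interval of 0.50 to 1.39. Both carriers thus lay on the higher side, Serpina6 with the narrower interval.

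Genes that handle the same hormones were set beside them. Per tag of Nr3c1, the glucocorticoid receptor, Serpina6 had 1.48 tags in the normal and 2.28 in diabetic liver. Hsd11b1, the enzyme that regenerates active glucocorticoid in liver, was itself 1.64-fold higher, and the Serpina6 tags per Hsd11b1 tag differed by 0.16 on the log2 scale with an interval that included 0 (-0.0021 to 0.32). Ttr encodes transthyretin, another carrier of thyroid hormone, and had a log2 ratio of -0.10, so that Serpina7 tags per Ttr tag were 2.06-fold higher. Of 7 genes chosen around hormones that serpins carry or release, 6 were listed (Agt, Nr3c1, Hsd11b1, Thrb, Dio1 and Ttr), with 1 at least 1.5-fold higher (0 under the 4 other scalings) and 0 lower. Over all listed genes 34.4% were higher and 15.3% lower on the deposited values. Under the 4 other scalings these shares were 21.9% to 24% and 23.7% to 25.6%. Agt encodes angiotensinogen, itself a serpin by structure though not by symbol, and had a log2 ratio of 0.43 (95% interval, 0.36 to 0.50).

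The remaining clade a serpins were all lower. Serpina10, the protein Z-dependent inhibitor of coagulation factor Xa, was at 37.2 TPM in the normal and 24.1 TPM in diabetic liver, a ratio of -0.63 (95% interval, -0.85 to -0.41). Its interval reached less than 1.5-fold. Serpina11, a secreted serpin of little known function, had 119 reads in normal liver and 56 in diabetic liver and was 2.79-fold lower (log2 ratio -1.48, 95% interval -1.97 to -1.01).

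Serpina12, known as vaspin and described as a secreted adipokine, had 28 reads in normal liver and 0 in diabetic liver. Serpina9, known as centerin and associated with germinal centre B cells, had 25 reads and 0 reads. A count of 0 allows up to 3 reads, or 0.222 TPM, in diabetic liver, against which Serpina12 was 12.2-fold lower and Serpina9 10.9-fold lower. These folds leave out counting error in normal liver, and the lower 95% limits were 9.33-fold and 8.27-fold. The ratios of Serpina12 and Serpina9 are the lowest of the family and rest on the fewest reads.

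The order of genes on the chromosomes was read from the RefSeq table. On chromosome 12, 23 consecutive protein-coding genes from Serpina10 to Serpina3n are all serpins, and 6 of the 15 members lie among them. Serpina11, Serpina9 and Serpina12 are consecutive there, but Serpina9 and Serpina12 had to be lower to be listed, so their shared direction with Serpina11 says nothing of position. Serpina10 and Serpina6 are also direct neighbours, but they differed in direction, with log2 ratios of -0.63 and 0.87. Serpina6 tags per Serpina10 tag went from 1.39 in the normal to 3.92 in diabetic liver. Of the 6 listed genes within 5 protein-coding genes of the run, Glrx5 (log2 ratio 1.87, from 934 and 4497 reads) and Ifi27l2b (1.03) were higher, Ifi27 was lower (-1.08), and Ddx24, Dicer1 and Clmn lay within 1.5-fold.

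Serpinc1 and Serpind1, heparin-activated inhibitors of thrombin in plasma, were higher in diabetic liver by nearly the same ratio. Both were below 1.5-fold under all 4 other scalings between the libraries. Serpine2, a member that also inhibits thrombin, was lower (log2 ratio -1.95). Serpinc1 encodes antithrombin, the main plasma inhibitor of thrombin and factor Xa, and was at 1312 TPM in the normal and 2329 TPM in diabetic liver. With 13490 and 31459 reads its log2 ratio was 0.83 (95% interval, 0.80 to 0.86), and its rank among listed genes went from 38 to 27. Serpind1 encodes heparin cofactor II, which inhibits thrombin, and had 1803 and 4166 reads with a log2 ratio of 0.81 (95% interval, 0.73 to 0.89). Serpinc1 had 7.48 tags per Serpind1 tag in normal liver and 7.55 in diabetic liver, a log2 difference of 0.01 with an interval of -0.07 to 0.10.

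Their targets did not share one direction. F2, the gene of prothrombin, was at 1540 TPM in normal liver with a log2 ratio of 0.23 (95% interval, 0.20 to 0.26), and F10, the gene of factor X, had a log2 ratio of 0.06 (95% interval, -0.01 to 0.14). Serpinc1 tags per F2 tag went from 0.852 to 1.29, a log2 difference of 0.60 (95% interval, 0.55 to 0.64), which does not depend on the scaling between libraries. Serpind1 tags per F2 tag differed by 0.58 in the same direction (95% interval, 0.50 to 0.67). Against F9, the gene of factor IX, which was 1.72-fold higher itself, Serpinc1 differed by 0.04 with an interval of -0.10 to 0.18. Against F11, the gene of factor XI, the log2 difference was 2.00 (95% interval, 1.84 to 2.17). Antithrombin tags were thus more numerous relative to F2, F10 and F11, and were not told apart from F9.

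Serpina10 went the other way. Its tags per F10 tag went from 0.156 in the normal to 0.0966 in diabetic liver, a log2 difference of -0.69 (95% interval, -0.92 to -0.47). Per tag of Proz, the gene of its cofactor protein Z, the difference was -0.91 (95% interval, -1.17 to -0.65). F11, the gene of another of its targets, factor XI, was 2.26-fold lower, so that Serpina10 tags per F11 tag were 1.46-fold higher. Of 18 proteases of blood that serpins act on, 14 were listed, of which 1 was at least 1.5-fold higher (F9), 3 were lower (F11, Plg and C1ra), and the median log2 ratio was -0.09, beside 34.4% higher and 15.3% lower over all listed genes. Under each of the 4 other scalings 0 were higher and 5 lower, with Proc and Plau added. Of all listed genes, 21.9% to 24% were then higher and 23.7% to 25.6% lower.

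The neighbouring clade f genes diverged. Serpinf2 encodes alpha-2-antiplasmin, the main inhibitor of plasmin, and was at 332 TPM in the normal and 138 TPM in diabetic liver, with a log2 ratio of -1.27 (95% interval, -1.35 to -1.19). Serpinf1 encodes pigment epithelium-derived factor, which inhibits no protease and acts on blood vessel growth and lipid breakdown, and was at 241 and 322 TPM. Its log2 ratio of 0.42 (95% interval, 0.35 to 0.49) lay under 1.5-fold. Both genes follow each other directly on chromosome 11, and Serpinf1 tags per Serpinf2 tag went from 0.726 to 2.33. Plg, the gene of plasminogen, the precursor of the protease that Serpinf2 inhibits, was 1.85-fold lower, and Serpinf2 tags per Plg tag were lower by a log2 difference of -0.38 (95% interval, -0.48 to -0.27).

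Serping1 encodes the C1 inhibitor, which restrains the first proteases of complement as well as factor XII and plasma kallikrein. It was at 124 TPM in the normal and 78.0 TPM in diabetic liver, a log2 ratio of -0.67 (95% interval, -0.78 to -0.55). Per tag of C1rb, a gene of one of its targets, it went from 0.690 to 0.498, and per tag of F12, the gene of factor XII, from 0.692 to 0.358. Per tag of C1ra, a scarcer C1 protease gene with 50 and 39 reads, the log2 difference was 0.09 with an interval of -0.53 to 0.70. The C1 inhibitor thus had fewer tags relative to C1rb and F12, and was not told apart from C1ra. The interval of its ratio reached less than 1.5-fold.

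**Figure D3:**
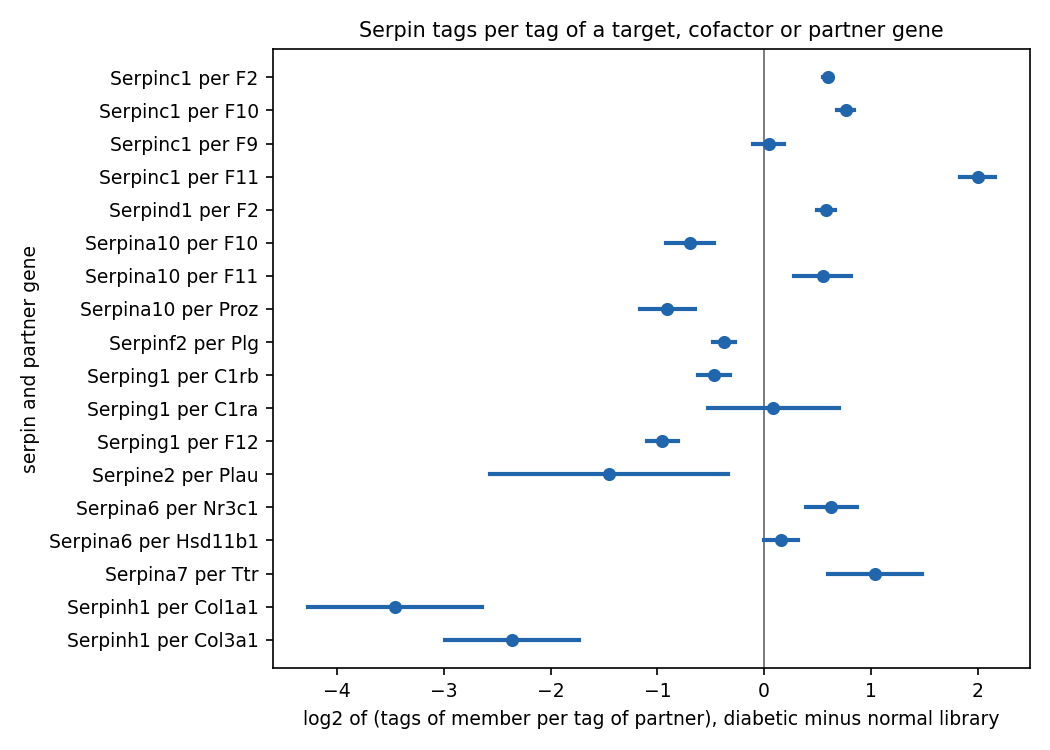
Log2 difference, diabetic minus normal library, in the number of serpin tags per tag of a target, cofactor or other partner gene, with 95% intervals from the read counts. Points right of 0 have relatively more serpin tags in diabetic liver, as for Serpinc1 and Serpind1 per F2, and points left of 0 relatively fewer, as for Serpinf2 per Plg and Serpinh1 per Col1a1.

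The members that act inside cells or in tissue were scarce. Serpinh1, the collagen chaperone also known as HSP47, had 86 reads in the normal and 31 in diabetic liver, a log2 ratio of -1.87 (95% interval, -2.51 to -1.26). Serpine2 encodes protease nexin-1, an inhibitor of thrombin and urokinase at cell surfaces, and had 47 and 16 reads with a log2 ratio of -1.95 (95% interval, -2.87 to -1.10). Serpinb6b, an intracellular clade b serpin, had 35 and 12 reads with a log2 ratio of -1.94 (95% interval, -3.02 to -0.96). All 3 were more than 3-fold lower, with intervals that span a wide range of folds. Serpinb6b was listed through normal liver alone and had to be lower, so its direction adds nothing to that of Serpinh1 and Serpine2.

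The genes of collagens and their folding enzymes did not share one direction. Of 10 such genes 9 were listed, 2 at least 1.5-fold higher (Col1a1 and P4hb), 3 lower (Col4a1, Col6a1 and P4ha1), with a median log2 ratio of 0.05. Beside these counts, 34.4% of all listed genes were higher and 15.3% lower. Serpinh1 had 2.69 tags per tag of Col1a1, a fibrillar collagen gene, in normal liver and 0.244 in diabetic liver. Against Col3a1, another fibrillar collagen gene, the log2 difference was -2.36 (95% interval, -2.99 to -1.74). Serpine2 tags per tag of Plau, the gene of urokinase, differed by -1.45 with an interval of -2.57 to -0.34.

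Markers of cell types were set beside these values. Hepatocyte markers were listed for 8 of 10 genes and summed to 19692 TPM in the normal and 18812 TPM in diabetic liver, with 1 lower (Apob) and 0 higher. Macrophage markers, 9 of 13 listed, summed to 269 and 136 TPM, with 5 lower (Emr1, Csf1r, C1qa, C1qc and Lyz2) and 1 higher (C1qb), and C1qa alone made up 176 and 50.7 TPM of these sums. Stellate cell markers, 7 of 9 listed and Col1a1 and Col3a1 among them, summed to 114 and 158 TPM, mostly from Dcn and Col3a1, with 2 higher (Pdgfrb and Col1a1) and 1 lower (Reln). Endothelial markers, 11 of 11 listed, summed to 153 and 128 TPM, with 2 higher (Kdr and Lyve1) and 4 lower (Tie1, Clec4g, Eng and Vwf). The counting intervals of Pdgfrb and Vwf included a ratio of 1. Cholangiocyte markers, 4 of 7 listed, summed to 67.1 and 111 TPM. Of the markers of T and NK cells 2 of 11 were listed, of B cells 2 of 8, and 1 each of 8 for neutrophils, 7 for erythroid cells, 9 for exocrine pancreas and 5 for mesothelium. The sums went from 3.50 to 2.89 TPM (T and NK), 5.35 to 3.78 (B), 2.33 to 3.04 (neutrophil), 51.9 to 44.2 (erythroid) and 2.04 to 0.222 (pancreas). Krt18, the only gene of the mesothelium list that was listed, went from 169 to 278 TPM but by itself does not mark mesothelium. The macrophage and endothelial sums were lower, while the stellate sum was higher. Clec4g alone made up 47.67 and 30.65 TPM of the endothelial sums. The part of cell type makeup in the ratios of the serpins was not tested.

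Summed over the 15 listed members, serpins took a 1.034% share of all clean tags in normal liver (95% Wilson interval, 1.028% to 1.041%). In diabetic liver the share was 0.616% (0.612% to 0.620%). Tags of serpins outside the list, such as Serpina1a to Serpina1e, did not enter this sum. The sum was 1.68-fold lower, from 10344 to 6163 TPM. This direction rested on Serpina3k, since the other 14 members together went from 2312 to 3313 TPM, 1.43-fold higher (95% interval, 1.41 to 1.46). Without Serpinc1 as well, the other 13 members summed to 999.9 and 984 TPM, a log2 ratio of -0.02 with an interval of -0.06 to 0.01.

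The make-up of the tags of the 15 listed serpins differed between the libraries in a way that no scaling between them can alter. Serpina3k held 77.6% of these tags in normal liver and 46.2% in diabetic liver. Serpinc1 held 12.7% and 37.8%, Serpind1 1.70% and 5.0%, and Serpinf1 2.33% and 5.22%. Serpinf2 held 3.21% and 2.24%, while the share of Serping1 was 1.2% (95% Wilson interval, 1.13% to 1.26%) and 1.26% (1.19% to 1.34%). There were 6.12 Serpina3k tags for each Serpinc1 tag in normal liver and 1.22 in diabetic liver. Serpina3k and Serpinc1 thus came close to equal numbers of tags only in diabetic liver.

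**Figure D4:**
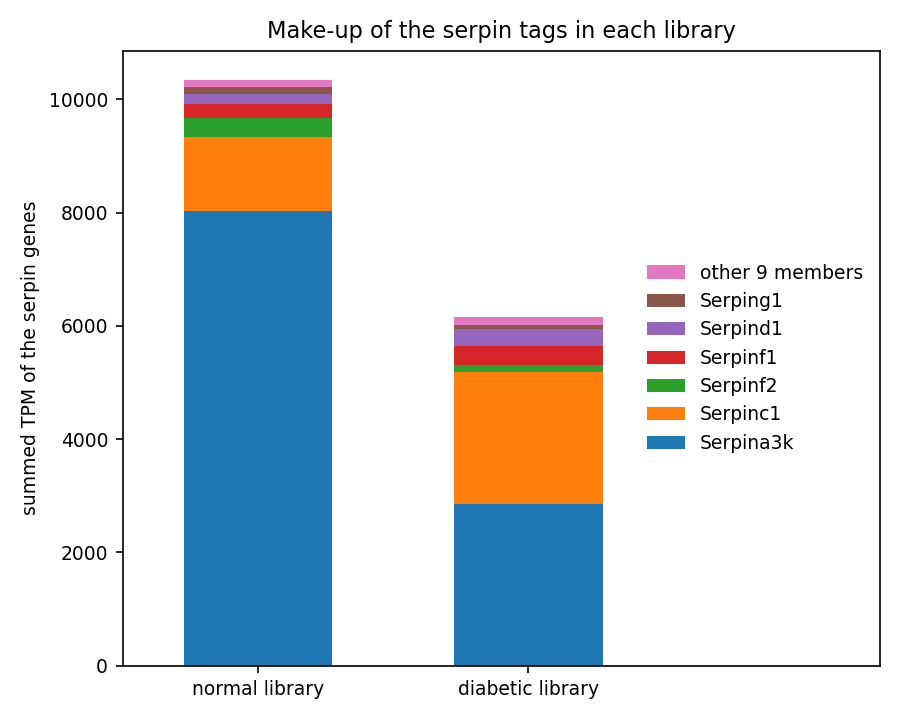
Summed TPM of the 15 listed serpin genes in each library (1 library per bar), stacked by gene from Serpina3k at the bottom. The bar goes from 10344 to 6163 TPM, with the Serpina3k part going from 8031 to 2849.7 TPM and the Serpinc1 part growing from 1312 to 2329 TPM.

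Since the median listed gene was higher in diabetic liver, the ratios were also taken relative to 4 other scalings between the libraries, which lower each log2 ratio by 0.25 to 0.31. All 10 lower members stayed at least 1.5-fold lower under each of them, as they must when every ratio is lowered. Serpina7 stayed at least 1.5-fold higher under all 4, and Serpina6 under 3 of them. Serpinc1 and Serpind1 were below 1.5-fold under all 4, with log2 ratios of 0.52 to 0.57 and 0.51 to 0.56, and Serpinf1 came to 0.11 to 0.16. No member changed sign. Of the genes set beside them, F9, C1qb, Hsd11b1, Pdgfrb and Krt18 were also below 1.5-fold under all these scalings. Kdr and Lyve1 were below it under median-ratio scaling alone, and the ratios of F2, F10 and Nr3c1 turned below 0.

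In counts, 2 members were higher when scaled to equal listed tags, by the trimmed mean of M values (TMM) or by the upper quartile, and 1 under median-ratio scaling. The shares of all listed genes called higher and lower were then 23.7% and 23.9% (listed sum), 24% and 23.7% (TMM), 23.4% and 24.3% (upper quartile), and 21.9% and 25.6% (median ratio). With a false discovery rate under 0.001 asked for as well, from an exact binomial test that compares the 2 libraries and not the conditions, all 4 higher and all 10 lower members were still called, against 22.9% and 8.19% of all listed genes.

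**Figure D5:**
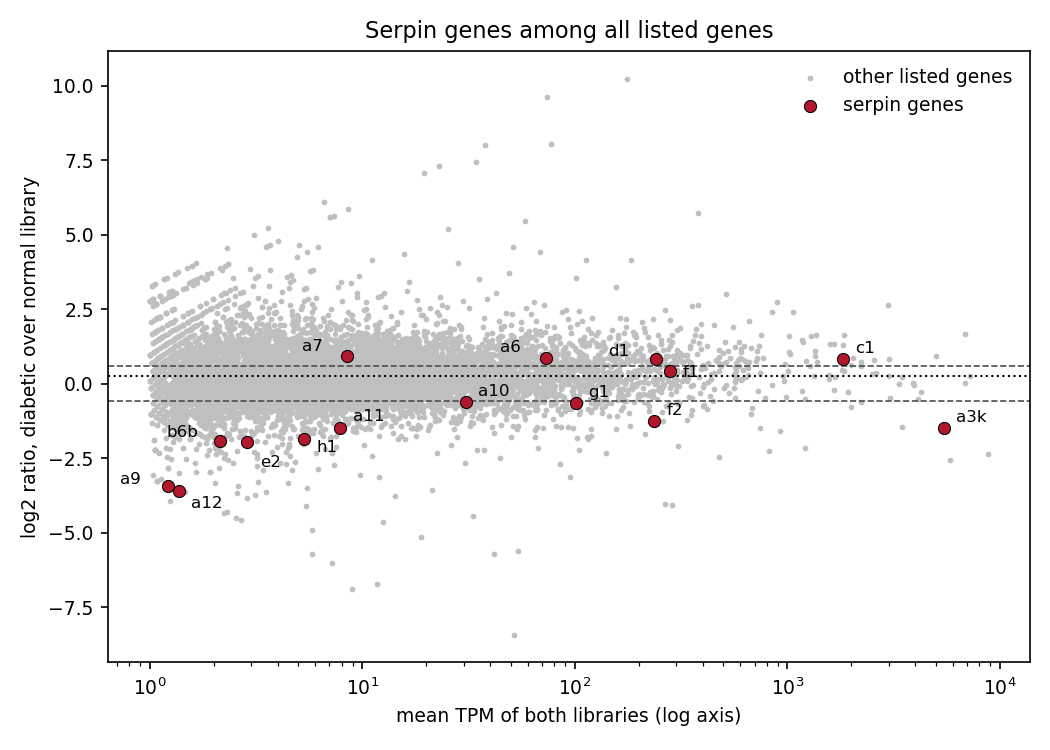
Log2 ratio of diabetic over normal library against mean TPM of both libraries (log axis) for all 8551 listed genes (grey) and the 15 serpins (red, named by the letters after Serpin). Dashed lines mark 1.5-fold, the dotted line the median of all listed genes at 0.25. The 10 lower serpins lie at or below the lower dashed line across the whole range of levels, from a9 and a12 at the left to a3k at the right.

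Promoter windows of 300 bases, from 250 before to 50 after the transcription start, were held by a RefSeq table (GRCm38.p6) for 10 of the 15 members. Those of Serpinc1 and Serpind1, which were higher by the same ratio, and of the neighbours Serpinf1 and Serpinf2, which diverged, are printed for comparison. Capitals mark matches, on either strand, to any of 5 short motifs, whose letters are spelled out after the windows.
Serpinc1, chr1:160978333-160978632, plus strand: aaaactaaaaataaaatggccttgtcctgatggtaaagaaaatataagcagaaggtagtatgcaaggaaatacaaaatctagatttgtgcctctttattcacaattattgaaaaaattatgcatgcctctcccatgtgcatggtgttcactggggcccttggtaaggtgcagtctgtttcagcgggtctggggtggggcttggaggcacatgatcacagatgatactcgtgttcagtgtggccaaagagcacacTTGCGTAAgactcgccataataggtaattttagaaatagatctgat
Serpind1, chr16:17331121-17331420, plus strand: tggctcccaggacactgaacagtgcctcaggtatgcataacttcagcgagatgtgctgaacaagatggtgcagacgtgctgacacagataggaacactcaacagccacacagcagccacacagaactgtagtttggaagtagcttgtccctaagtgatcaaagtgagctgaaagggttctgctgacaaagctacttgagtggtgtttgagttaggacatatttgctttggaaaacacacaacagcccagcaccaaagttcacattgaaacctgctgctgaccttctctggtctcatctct
Serpinf1, chr11:75422574-75422873, minus strand: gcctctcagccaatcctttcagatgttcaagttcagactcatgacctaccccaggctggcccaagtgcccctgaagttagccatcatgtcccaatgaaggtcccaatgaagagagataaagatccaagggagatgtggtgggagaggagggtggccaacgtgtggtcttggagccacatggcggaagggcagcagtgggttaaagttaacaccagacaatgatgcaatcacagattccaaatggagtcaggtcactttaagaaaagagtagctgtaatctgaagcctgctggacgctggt
Serpinf2, chr11:75439452-75439751, minus strand: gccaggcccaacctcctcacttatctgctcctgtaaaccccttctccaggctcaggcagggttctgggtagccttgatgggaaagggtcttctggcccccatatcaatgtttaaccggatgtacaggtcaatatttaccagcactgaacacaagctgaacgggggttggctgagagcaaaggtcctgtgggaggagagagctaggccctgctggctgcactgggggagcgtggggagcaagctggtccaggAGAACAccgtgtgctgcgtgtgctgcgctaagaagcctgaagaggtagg

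Serpinc1 held 1 match to the C/EBP letters and Serpinf2 held 1 match to the glucocorticoid receptor letters, while Serpind1 and Serpinf1 held none of the 5. For C/EBP the letters searched were TTGCNNAA, with N for any base, found in 3 of the 10 member windows (Serpina12, Serpina7 and Serpinc1) and in 10.8% of all 32851 windows. For STAT factors they were TTCNNNGAA, found in the window of Serpina11 alone among members and in 8.30% of all windows. The glucocorticoid receptor letters AGAACA were found in that of Serpinf2 alone and in 19.0% of all. The TATA box, TATAAA, was found in the window of Serpina7 alone among members and in 13.6% of all windows. The GC box, GGGCGG, was found in 4 of the 10 (Serpina12, Serpinb6b, Serpine2 and Serpinh1) and in 35.7% of all windows. Among the members with a window, which leave out Serpina3k, Serpina6, Serpina9, Serpina10 and Serping1, none of the 5 was in all higher or in all lower ones. The 4 with a GC box were all lower members, though Serpina12 and Serpinb6b among them had to be lower to be listed. A link between motif and direction was not tested.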

How the data were processed

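Liver poly(A) RNA of normal and diabetic mice was profiled with DpnII tags, 1 library per group, grouped by the sample titles. The authors removed adaptors, compared clean tags with RefSeq and deposited RPM values, which they call TPM, rounded to 2 decimals, with 0.01 for 0. The table holds no gene under a mean of 1 TPM (lowest, 1.005). The labels name the build mm9. The aligner and the treatment of tags common to several genes are not given in the sources used here. Number of columns not used: 0.

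Library sizes and whole read numbers follow from the step between low values (8513 of 8513 and 8536 of 8537 values whole, to within 0.005 TPM), with a median of 71 and 111 reads per listed gene. A gene with 0 reads took the floor of 3 reads (0.292 TPM in normal, 0.222 TPM in diabetic liver). Calls are 1.5-fold on the deposited values, with no test of conditions. The alternative call added a two-sided exact binomial test with Benjamini-Hochberg adjustment over 8551 genes. Intervals of tags per partner tag are normal intervals of the log ratio of counts. No molecular identifiers mark PCR copies, so that intervals cover counting error only. TMM trimmed 30% of log ratios and 5% of abundances, median-ratio scaling used genes of at least 10 TPM, and upper-quartile scaling the 75th percentile. Every member was named, and of the other lists only the genes beside which a member was set, those past 1.5-fold, some paralogs of these and the few most abundant. The members, lists and partner genes were chosen with earlier results of these data known. All 15 members and 8317 of 8551 listed genes matched the RefSeq table of GRCm38.p6 by Entrez identifier, used for names, gene order and promoters. Some results, on single listed genes, are not reported here. The scripts were tested on simulated data. Computation was in Python 3.11.15 (pandas 2.3.3, numpy 2.4.6, matplotlib 3.10.9, scipy 1.17.1).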

Additional observations from a re-analysis of the deposited data

How the results depend on the processing

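The count of lower members was 10 under the 4 other scalings, both pseudocounts and the added false discovery rate, 8 with a 2-fold threshold (6.81% of listed genes), with the whole interval past 1.5-fold (5.37%) or without the genes at 0 reads (15.2%), and 7 at 1 TPM or more in both libraries (13.9%). It was 6 among members whose mean reached 5 TPM and 6 among those with at least 100 reads in total (12.4% and 12.2% of listed genes lower). The count of higher members was 2 with equal listed tags, TMM or the upper quartile, 1 under median-ratio scaling and 0 with a 2-fold threshold (18.6% of listed genes), 3 with the whole interval past 1.5-fold (17.4%), and 4 otherwise. The family median was -1.57 by median ratio, -1.54 by upper quartile, -1.52 by TMM and -1.53 with equal listed tags, by construction of scalings that lower every ratio. It was -0.63 for means of 5 TPM or more and for 100 reads or more, -0.67 without the genes at 0 reads and -0.65 at 1 TPM or more in both libraries, where fewer low members enter. The 15 members held 2.79% of the listed tags in the normal and 1.39% in the diabetic library, and without Serpina3k 0.231% and 0.331% of clean tags. The log2 ratio of the summed family, -0.75, reversed to 0.52 without Serpina3k. Summing close paralogs changed nothing, since 1 gene of each such group was listed at most. Settings at 0 reads, 100 reads and 1 TPM, and all those on the summed family, were chosen after seeing the data. Of 101 recomputed member ratios 34 left their counting interval and 0 changed sign. No paired analysis was possible because each group is 1 library. Depth limits the members under 10 TPM, whose intervals span the widest folds, and without replicates the spread between mice is unknown.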

Other observations

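Of 20 secreted protease inhibitors that are not serpins 15 were listed, with 2 at least 1.5-fold higher, 2 lower and a median log2 ratio of -0.08, where 34.4% of all listed genes were higher and 15.3% lower. Under each of the 4 other scalings 1 was higher (Timp2) and 5 were lower (Pzp, Itih1, Itih3, Kng2 and Tfpi). Of all listed genes, 21.9% to 24% were then higher and 23.7% to 25.6% lower. Ambp, the precursor of bikunin, was the most abundant at 4660 TPM in normal liver with a log2 ratio of -0.27 (95% interval, -0.29 to -0.25). Itih1, a heavy chain that is joined to bikunin, was 2.07-fold lower, and Kng2, a kininogen gene, 2.00-fold lower. Their listed paralogs were not past 1.5-fold, with log2 ratios of -0.02 for Itih2, -0.58 for Itih3 and -0.01 for Itih4. Kng1, the more abundant kininogen gene at 787 TPM in normal liver against 21.2 TPM for Kng2, had a log2 ratio of -0.24. Pzp, an alpha-macroglobulin that traps proteases of many kinds, counted 9412 reads in normal and 8904 in diabetic liver, with a log2 ratio of -0.47. Timp2 and Slpi were higher, with 10 and 42 reads for Timp2 and 36 and 81 for Slpi.

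Over all listed genes 34.4% were higher and 15.3% lower on the deposited values, shares that stand beside each such count in this paragraph. For counts under the 4 other scalings, the shares were 21.9% to 24% higher and 23.7% to 25.6% lower. Of 12 listed genes that help secreted proteins such as serpins through the secretory pathway, 2 were higher and 0 lower. The higher ones were Lman1 and Mcfd2, with log2 ratios of 0.63 and 0.91, which together form a cargo receptor from the endoplasmic reticulum to the Golgi. Under each of the 4 other scalings 1 was higher (Mcfd2) and 1 lower (Canx). Of 7 cofactors and clearing receptors 3 were higher and 1 lower, and under each of the 4 other scalings 2 were higher (Vldlr and Asgr1) and 2 lower (Vtn and Lrp1). Asgr1 and Asgr2, the subunits of the asialoglycoprotein receptor, were 1.91-fold and 1.54-fold higher, Vldlr had 0 reads in the normal and 34 in the diabetic library, so that it was listed through diabetic liver alone and had to be higher, and Vtn, the gene of vitronectin, was 1.78-fold lower. Among transcription factors of hepatocyte and acute-phase genes, Cebpb and Nr1h4 were higher and Hnf4a and Foxa3 lower. Hnf4a was at 96.8 and 46.2 TPM, with a ratio of -1.07 on the log2 scale (95% interval, -1.21 to -0.92), while Cebpb went from 120 to 188 TPM. Of 6 membrane serine proteases 5 were listed, with Prss8 higher and Tmprss2 lower on 45 reads or fewer, and of 10 intracellular and leukocyte proteases 3 were listed, with Ctsl lower on 16 and 11 reads. Under all 4 other scalings the ratios of Lman1, Asgr2, Slpi, Cebpb and Nr1h4 were below 1.5-fold, and that of Prss8 was below it under 2 of them. Of the 3 listed intracellular and leukocyte proteases, all 3 (Ctsb, Ctsl and Ctss) were lower under each of these scalings.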
